A study of Homo sapiens with 8 samples.

Results

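The genes described here are HSPA1A, HSPA1B and HSPA8, which encode cytosolic members of the heat shock protein 70 (HSP70) family. Their m6A peaks were taken by position, as every listed peak that shared at least 1 base with the hg19 window of one of the genes. The windows are chr6:31783291-31785719 for HSPA1A, chr6:31795512-31798031 for HSPA1B and chr11:122928200-122932844 for HSPA8. Of 30765 peaks in the 4 lists, 6 met this rule. The ends called 5′ and 3′ refer to the transcript, and both HSPA1A and HSPA1B are transcribed towards higher coordinates. The rule used positions only, so the enrichment, tags and scores of the peaks had no part in it.

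The samples were HepG2 cells, a line derived from a human hepatocellular carcinoma, transfected with control siRNA (siControl) or with an siRNA against METTL3 (siMettl3) and harvested 48 h later. The labels name no heat shock. METTL3 is the catalytic subunit of the methyltransferase that deposits m6A on mRNA, and the study addressed how m6A is laid out on, and acts on, transcripts of heat shock proteins. Each group had 2 replicates, and in each replicate polyA RNA was broken into pieces of roughly 100 nt, pulled down with an anti-m6A antibody and sequenced beside its input. The methods name a single siRNA against METTL3, and nothing in the labels says whether the replicates were separate cultures, so p-values measure only the spread between these samples. The lists hold neither expression values nor gene names, so the level of METTL3 and the marker genes of HepG2 were not checked here.

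The lists held between 6888 and 8577 peaks, with between 1945803 and 2426342 tags (sequenced fragments) inside the peaks of a sample. Library depth cannot be read from peak lists, so it is unknown here and no counting interval is given. siMettl3 replicate 2 had the most peaks and the fewest tags in peaks. Its median peak held 139 tags, against 175 to 199 in the other samples, and its median fold enrichment was 4.85, against 4.38 to 4.60.

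HSP70 proteins are chaperones that bind exposed hydrophobic stretches of unfolded proteins and release them in cycles driven by ATP. HSPA1A and HSPA1B are the stress-inducible members, switched on by heat shock factor 1, and lie beside each other on chromosome 6. HSPA8, also called HSC70, is the constitutive member and is abundant in most cells without stress. m6A is read by YTH domain proteins, which act on the decay and translation of the marked mRNA, and in general it is densest near stop codons and in untranslated regions.

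HSPA1A and HSPA1B are near-identical copies, and their upstream sequences are shown because short reads can be told apart only where the copies differ, and because the peak at the start of HSPA1B reaches upstream of its gene. Each run holds the 250 bases before the gene start in RefSeq on GRCh38.p14, plus strand, at chr6:31815293-31815542 for HSPA1A and at chr6:31827488-31827737 for HSPA1B. Capitals mark the bases that differ, or lack a partner, in a global alignment of both runs. These coordinates belong to GRCh38.p14 and are not those of the peaks, which are on hg19.
HSPA1A: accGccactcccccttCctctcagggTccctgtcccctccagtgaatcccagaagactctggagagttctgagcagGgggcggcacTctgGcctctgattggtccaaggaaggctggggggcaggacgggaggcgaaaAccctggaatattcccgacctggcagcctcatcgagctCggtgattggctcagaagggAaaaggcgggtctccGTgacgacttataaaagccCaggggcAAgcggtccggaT
HSPA1B: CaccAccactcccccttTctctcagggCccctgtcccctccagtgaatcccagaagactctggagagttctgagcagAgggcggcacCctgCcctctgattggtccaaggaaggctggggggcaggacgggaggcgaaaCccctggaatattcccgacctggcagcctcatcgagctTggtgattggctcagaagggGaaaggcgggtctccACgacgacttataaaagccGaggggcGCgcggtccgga

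In this alignment 235 positions were the same, 14 held different bases and 2 had no partner, which makes 93.63% identity. The same alignment of HSPA1A with HSPA8 gave 51.2%, and that of HSPA1B with HSPA8 gave 50.51%. The heat shock element, the site of heat shock factor 1, is built of inverted GAA units, and the search looked for the letters GAANNTTC or TTCNNGAA, each of which reads the same on both strands and may overlap the other. The upstream run of HSPA1A held 1 match and that of HSPA1B held 1, within the stretch ggaatattcc that both share, while the run of HSPA8 held 4. Of all 35116 upstream runs in the table, 11.58% held at least 1 match. These matches are a description of the letters. The handling of reads that map equally well to both genes is not given in the sources used here, so each peak below is named by its position and its split between HSPA1A and HSPA1B is uncertain.

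A peak near the 3′ end of HSPA1A or of HSPA1B was listed in each of the 4 samples, but never at both genes in the same sample. Both siControl samples and siMettl3 replicate 1 had it at HSPA1B, and siMettl3 replicate 2 had it at HSPA1A. A peak at the 5′ end was listed at HSPA1B in siControl replicate 2 and siMettl3 replicate 1 alone. HSPA8 had no listed peak in any of the 4 samples. Replicate 1 of siControl and replicate 2 of siMettl3 thus listed 1 peak each at these genes, and the other samples listed 2 each.

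**Figure D1:**
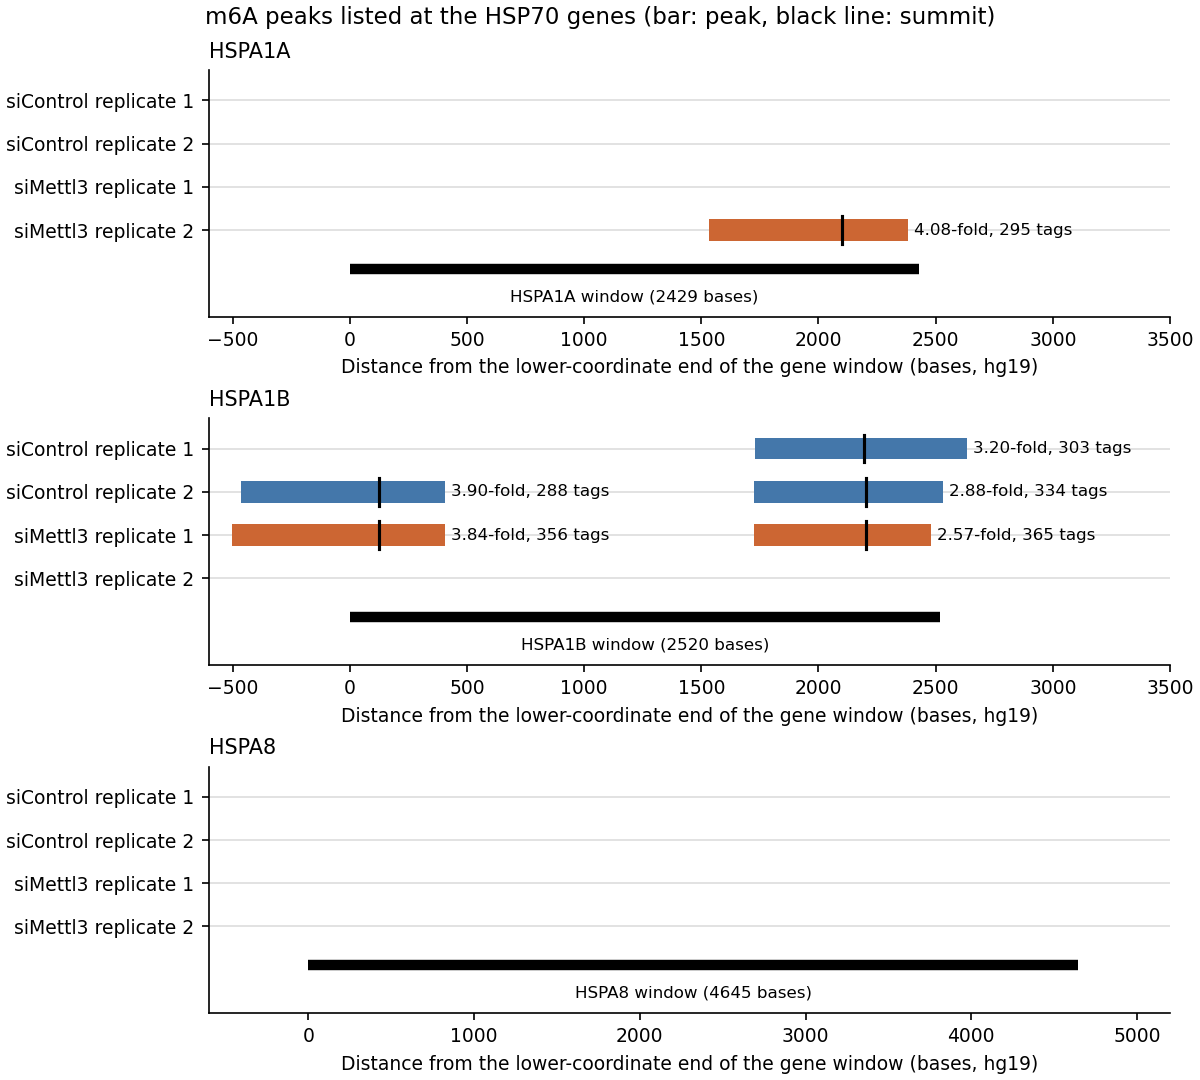
Peaks listed at the windows of HSPA1A, HSPA1B and HSPA8 in each sample, with the distance in bases from the lower-coordinate end of the window on the x axis and 1 row a sample (blue, siControl, orange, siMettl3). Bars span the peaks, black lines mark summits, and the text gives fold enrichment and tags: the 3′ peak lies at HSPA1B in 3 samples and at HSPA1A in siMettl3 replicate 2, and the HSPA8 rows are empty.

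The positions of the peaks were nearly the same from sample to sample. The summit, the base with the highest pile of fragments, lay at base 31797706 of chromosome 6 for the HSPA1B 3′ peak in siControl replicate 1, at 31797717 in siControl replicate 2 and at 31797713 in siMettl3 replicate 1. These summits fell within 11 bases of each other, and they were 325, 314 and 318 bases before the end of the HSPA1B window. The summit of the HSPA1A peak in siMettl3 replicate 2 was at 31785392, which is 327 bases before the end of the HSPA1A window. Measured from the end of its own gene, the HSPA1A peak thus had its summit 2 to 13 bases farther in than the HSPA1B peaks. Measured from the start of the window the match was looser. The HSPA1A summit lay 2101 bases in, against 2194, 2205 and 2201 at HSPA1B, in windows of 2429 and 2520 bases. Whether the peaks sit at matching bases of both copies was not tested. For the HSPA1B 5′ peak, both samples that listed it had the summit at the same base, 31795635, which is 123 bases inside the window.

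The inner edges of the HSPA1B peaks were sharper than the outer ones. The 3′ peaks began at 31797240, 31797238 and 31797239, in the order of samples given above, a spread of 2 bases, while their ends spread over 153 bases. The 5′ peaks ended at 31795919 in siControl replicate 2 and at 31795920 in siMettl3 replicate 1, a spread of 1 base, while their starts lay 465 and 503 bases before the window. Between the inner edges, 1317 bases in the middle of HSPA1B were under no listed peak in any sample. The HSPA1A peak began 894 bases before its gene end, against 791 to 793 bases for HSPA1B.

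At the HSPA1B 3′ peak, fold enrichment (immunoprecipitated over background signal within a sample, as the peak caller gave it) was 3.20 in siControl replicate 1, 2.88 in siControl replicate 2 and 2.57 in siMettl3 replicate 1. The siMettl3 value was below both siControl values, but the share of all regions with such an order was not counted. siControl had 3.04 ± 0.226 (SD, n = 2), and siMettl3 had a single value because replicate 2 listed no peak there. On the log2 scale the difference (siMettl3 minus siControl) was −0.24 with an SE of 0.205 and an adjusted p of 0.73, in a limma fit over 6026 regions that had a peak in both groups and could be tested. In that fit 0 regions (0%) reached an adjusted p of 0.05 and 506 had an unadjusted p under 0.05. The HSPA1B 3′ region had an unadjusted p of 0.293 in limma, with 1 residual degree of freedom of its own. The SE assumes that the lone siMettl3 sample varies like the others, so the spread of siMettl3 at this peak was not measured.

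The unscaled tags in the HSPA1B 3′ peak ran the other way. They were 303 in siControl replicate 1, 334 in siControl replicate 2 and 365 in siMettl3 replicate 1, over peaks of 906, 808 and 754 bases. This makes 334, 413 and 484 tags per kb of peak in the same order. The sample with the most tags per kb had the lowest enrichment of the 3. Tags are counted over each sample's own peak and are not scaled to depth. Scaled to the tags in all peaks of a sample, the log2 difference (siMettl3 minus siControl) at this peak was 0.065. That was within the siControl SD of 0.096 (n = 2).

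The HSPA1B 5′ peak had a fold enrichment of 3.90 in siControl replicate 2 and of 3.84 in siMettl3 replicate 1, with 288 and 356 tags. With 1 sample a group the difference of −0.022 on the log2 scale has no test, and centring each sample on its median turned its sign to 0.096. Of the 5′ peak, 46.74% lay inside the HSPA1B window in siControl replicate 2 and 44.85% in siMettl3 replicate 1, and the remainder lay upstream. Its enrichment was above that of the 3′ peak in the same sample, 3.90 against 2.88 in siControl replicate 2 and 3.84 against 2.57 in siMettl3 replicate 1.

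The HSPA1A peak of siMettl3 replicate 2 had a fold enrichment of 4.08 and 295 tags over 849 bases, or 347 tags per kb. Its enrichment was the highest of the 6 peaks and its tags were within the range of the others, 288 to 365. The lists differ in their level of enrichment, and within its own list the HSPA1A peak ranked above 27.74% of peaks. The HSPA1B 5′ peak ranked above 27.46% in siControl replicate 2 and 31.23% in siMettl3 replicate 1. Without siMettl3 replicate 2, no peak was listed at HSPA1A. No fold change can be given, because no siControl sample listed a peak there and a peak below the threshold of the lists leaves no value.

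**Figure D2:**
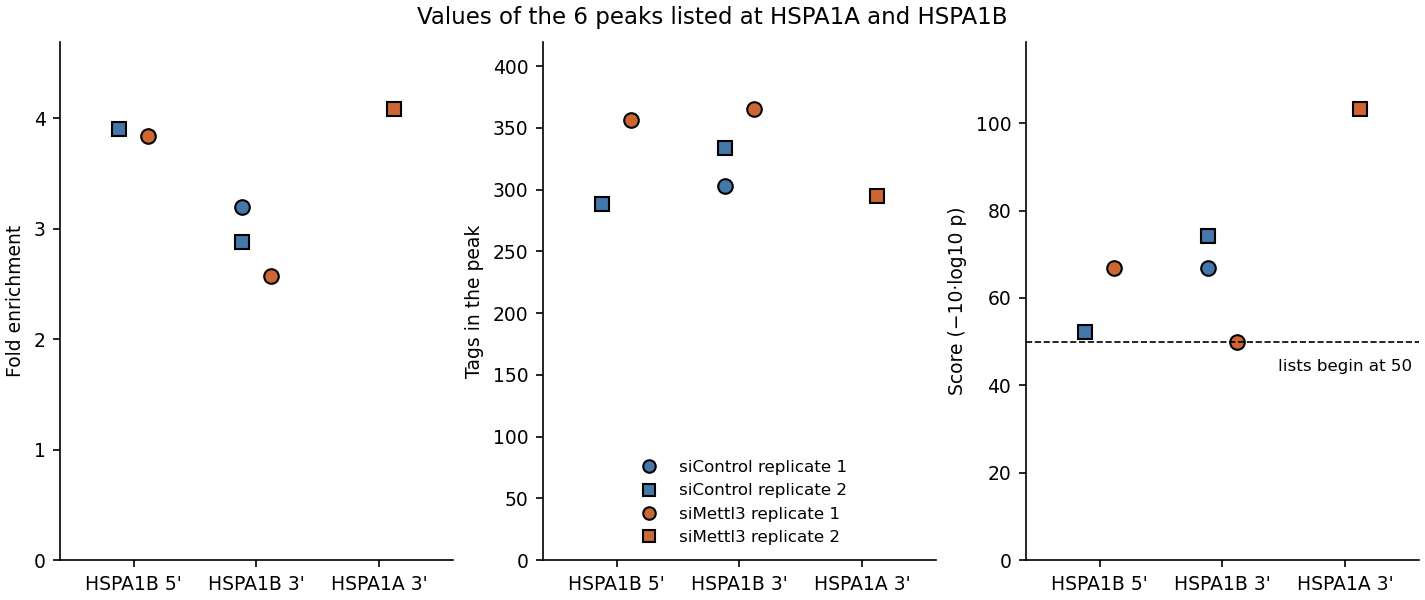
Fold enrichment, number of tags and score of the 6 peaks listed at HSPA1A and HSPA1B, by peak (x axis) and sample (blue, siControl, orange, siMettl3, circles, replicate 1, squares, replicate 2). The dashed line in the panel of scores marks 50, where the lists begin, and only the HSPA1A peak of siMettl3 replicate 2 is above a score of 100.

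The scores of these peaks were low. The score is the negative log10, multiplied by 10, of the peak caller's p-value, and the lists begin at 50. At the HSPA1B 3′ peak it was 66.76 in siControl replicate 1, 74.12 in siControl replicate 2 and 50.01 in siMettl3 replicate 1, the last being the lowest score of that list. At the HSPA1B 5′ peak it was 52.20 in siControl replicate 2 and 66.76 in siMettl3 replicate 1, and at HSPA1A it was 103.17. The listed false discovery rate (FDR) was 100% for 4 of the 6 peaks, 96.26% for the HSPA1B 3′ peak of siControl replicate 2 and 56.48% for the HSPA1A peak. The 5 HSPA1B peaks scored above 0% to 24.23% of the peaks in their lists and the HSPA1A peak above 46.87%. At an FDR of at most 50% none of the 6 would be listed. High FDRs were general to the lists, whose medians ran from 54.35% (siMettl3 replicate 2) to 72.04% (siMettl3 replicate 1). Most peaks of every list would thus fail the same limit, and the HSPA1A peak was close to the median of its list.

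The presence of the peaks was set beside that of all 12221 regions made by merging overlapping peaks of the 4 samples. A peak in siMettl3 replicate 2 alone, as at HSPA1A, was found in 1399 regions (11.4%). A peak in every sample but siMettl3 replicate 2, as at the HSPA1B 3′ end, was found in 271 regions (2.22%). A peak in siControl replicate 2 and siMettl3 replicate 1 alone, as at the HSPA1B 5′ end, was found in 330 regions (2.7%). Regions that lacked a peak in only 1 other sample numbered 903 where that sample was siMettl3 replicate 1, 768 where it was siControl replicate 1 and 209 where it was siControl replicate 2. None of the 3 patterns at these genes separates the siControl from the siMettl3 samples.

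The extent of the peaks gave no separation either. Of the 2520 bases of HSPA1B, peaks covered 792 and 1202 in the siControl samples, and 1163 (replicate 1) and 0 (replicate 2) in the siMettl3 samples. siControl had 997 ± 289.9 bases and siMettl3 581.5 ± 822.4 (SD, n = 2 each). An exact permutation test, two-sided, gave p = 0.667, where 0.33 is the smallest p possible. Without siMettl3 replicate 2 the difference turned from −415.5 to 166 bases. In HSPA1A, 849 of 2429 bases were covered in siMettl3 replicate 2 and 0 in the other samples. With a single value above 0, the exact two-sided permutation test (n = 2 each) gives p = 1.0 whatever its size, so it decides nothing here.

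Each gene's highest fold enrichment could be compared between the groups at HSPA1B alone. It was 3.20 and 3.90 in siControl and 3.84 in siMettl3 replicate 1, a log2 difference of 0.12 (exact two-sided permutation test, n = 2 against 1, p = 1.0, smallest possible 0.33). The value of siControl replicate 1 comes from the 3′ peak and the others from the 5′ peak, and at the 3′ peak alone the difference was −0.24. Tags in the peaks of HSPA1B were 151 for every 1000000 tags in all peaks in siControl replicate 1, 256 in siControl replicate 2 and 298 in siMettl3 replicate 1. The siMettl3 value was above both, and the log2 difference was 0.60 (exact two-sided permutation test, n = 2 against 1, p = 0.667). siControl replicate 1 listed 1 peak at HSPA1B, and the other samples named here listed 2 each. The share of all regions with the siMettl3 value above both was not counted. With only the 3′ peak counted, the log2 difference was 0.065.

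With HSPA1A and HSPA1B pooled, every sample had 1 value for the 3′ peak. This combination was made after the positions had been seen, so it is given without a test. Its fold enrichment was 3.20 and 2.88 in siControl, and 2.57 and 4.08 in siMettl3. The siMettl3 values lay on both sides of the siControl values. The means were 3.04 ± 0.226 in siControl and 3.33 ± 1.07 in siMettl3 (SD, n = 2 each), so the difference was smaller than the spread within siMettl3. Tags were 303 and 334 in siControl and 365 and 295 in siMettl3, again with the siMettl3 values on both sides, and their means were 318.5 ± 21.9 and 330.0 ± 49.5 (SD, n = 2 each). The bases under peaks in both windows were 792 and 1202 in siControl and 1163 and 849 in siMettl3. For comparison, among the 3875 regions with a peak in all 4 samples, both siMettl3 values were above both siControl values in 20.6% and below them in 21.1%, and no region at the HSP70 genes is among the 3875.

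The 6 peaks were dense in tags and little enriched compared with other peaks of their own lists. Each had more tags than 68.97% to 77.79% of the peaks of its sample, and more tags per kb than 85.44% to 94.1%. Its fold enrichment was above that of only 2.31% to 31.23% of them. The HSPA1B 3′ peak ranked lowest in enrichment, above 10.63% of the list in siControl replicate 1, 3.99% in siControl replicate 2 and 2.31% in siMettl3 replicate 1. The HSPA1B 5′ peak ranked above 27.46% and 31.23%, and the HSPA1A peak above 27.74%.

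Denser peaks tended to be less enriched in every list. The lists hold only peaks with a score of at least 50, and the part of that limit in this relation was not tested. Across the peaks of a list, which are not independent replicates and share 1 library, Spearman's rho between tags per kb and fold enrichment ran from −0.41 to −0.34 over the 4 lists. The share of peaks both as dense and as little enriched was counted for each of the HSP70 peaks. It cannot exceed the share with no higher enrichment, so a small value follows from the low enrichment ranks above and is no separate trait. At least as many tags per kb with no higher enrichment was found for 5.78% of the peaks of siControl replicate 1, for 2.22% of siControl replicate 2 and for 1.43% of siMettl3 replicate 1, each count holding the peak itself. For the HSPA1B 5′ peak the shares were 9.27% in siControl replicate 2 and 8.31% in siMettl3 replicate 1. For the HSPA1A peak it was 5.19%.

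**Figure D3:**
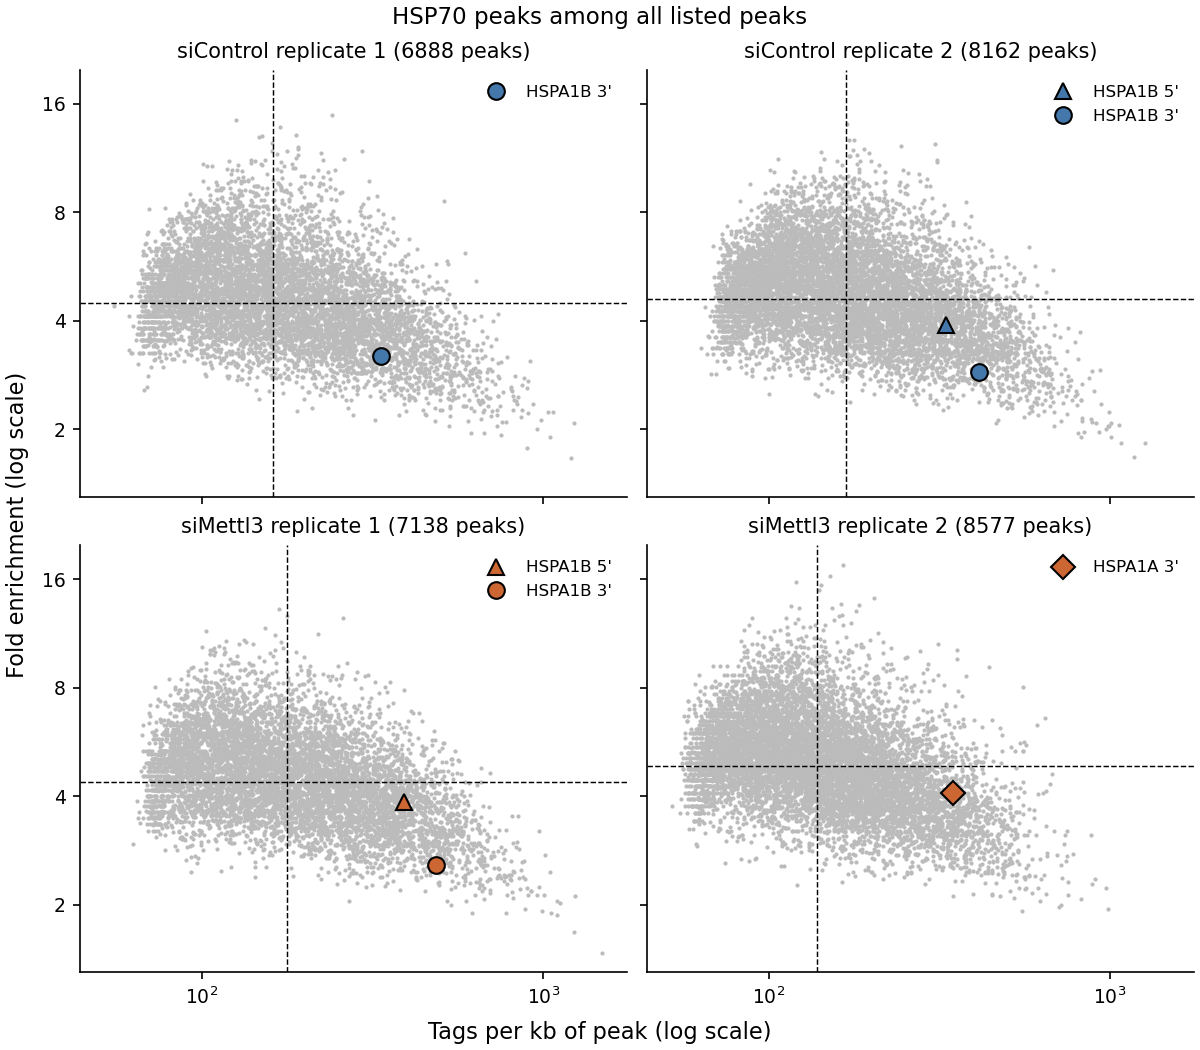
All listed peaks of each sample (grey) by tags per kb of peak (x axis, log scale) and fold enrichment (y axis, log scale), with the HSPA1A and HSPA1B peaks as large symbols and dashed lines at the medians of the list. In each panel the HSP70 peaks lie in the lower right part, with more tags per kb and less enrichment than the median peak.

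On either side of HSPA1A and HSPA1B there were regions with a peak in all 4 samples. The nearest such region above HSPA1B, chr6:31866604-31869333 on hg19, 68.57 kb from it, had a fold enrichment of 3.29 and 3.52 in siControl (replicates 1 and 2) against 3.30 and 3.76 in siMettl3. It held 849, 916, 671 and 607 tags in that order. The nearest below HSPA1A, chr6:31631310-31632956, 150.34 kb from it, had 4.02, 4.05, 4.24 and 4.23, with 527, 591, 627 and 465 tags. So siMettl3 replicate 2 listed peaks of similar enrichment on both sides of the genes, though with fewer tags than the other samples. The part of its fewer tags in the missing HSPA1B peaks was not tested.

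HSPA8 was without a peak over all 4645 bases of its window in every sample. The nearest region below it, chr11:122680317-122681480, is 246.72 kb away and was listed in both siControl replicates, with a fold enrichment of 3.73 and 4.43, and in no siMettl3 replicate. Its scores there were 50.16 and 92.51, with an FDR of 100% and 79.25%. Of all 12221 regions, 635 (5.2%) were listed in both siControl samples alone and 641 (5.2%) in both siMettl3 samples alone. The nearest region above HSPA8, chr11:123595075-123597898, is 662.23 kb away and was listed in all 4 samples, with 4.87 and 5.43 in siControl and 4.96 and 4.78 in siMettl3. HSPA8 thus lay in a stretch without listed peaks that reached beyond the gene on either side. The usual distance between regions was not measured, so the stretch may be ordinary. Since the lists hold only peaks with a score of at least 50, an unlisted gene may carry m6A below that limit, and the lists do not say how many HSPA8 fragments were sequenced. In cells sequenced in bulk, fewer cells with a methylated transcript and less m6A on each transcript cannot be told apart.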

How the data were processed

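Peak lists of 2 siControl and 2 siMettl3 immunoprecipitated samples were used, with inputs entering through the peak calling alone. The submitters' processing notes name CASAVA 1.8.2, MACS 1.4.2 and the build hg19, while the aligner and its handling of reads with several matches are not given in the sources used here. The authors deposited, for each peak, tags as a whole-number count not scaled for depth, a score (the negative log10 of the p-value multiplied by 10), a fold enrichment, which is a linear ratio, and an FDR in percent. Peaks passed the chromosome end on 0 of 24 chromosomes of hg19, 11 of hg18 and 13 of GRCh38. The chromosome lengths for this check came from general knowledge, not from a supplied file.

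Peaks sharing at least 1 base were merged over samples into regions. Single values were compared with exact two-sided permutation tests, and log2 fold enrichment with limma 3.58.1 (lmFit, eBayes, Benjamini-Hochberg adjustment over all regions tested). The limma fit was tested on simulated data. Changes far above the simulated noise were put only into regions with a peak in all 4 samples. The power of the fit for smaller changes, or in regions with missing values, as at HSPA1B, was not tested. The planned fit, over regions with a peak in all 4 samples, holds no HSP70 region, so the fit over regions with a peak in each group is given. The genes were named by the rule. Further HSP70 and co-chaperone genes were to be named only with an hg19 annotation, which was not used here. The RefSeq table of GRCh38.p14 held all 3 genes and gave sequences and gene order only.

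The genes and lists were chosen with earlier results of these data known, and the comparisons of single HSPA1B peaks and of HSPA1A with HSPA1B pooled were added with the values in view. Alternatives were limits of score and FDR, a shared 50% of the peak or window, other means, scalings and limma settings, the replicate number as a block, and each sample left out in turn. Python 3.11.15, pandas 2.3.3, Biopython 1.88, matplotlib 3.10.9 and R 4.3.3 were used.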

Additional observations from a re-analysis of the deposited data

How the results depend on the processing

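No comparison at the HSP70 genes passed its test. The permutation tests could not reach 0.05, as their smallest possible p is 0.33, and limma tested only the HSPA1B 3′ peak. The values below are differences of siMettl3 minus siControl, on the log2 scale except for bases and counts. The highest fold enrichment at HSPA1B turned from 0.12 to −0.24 where 50% of the peak or window had to be shared, which drops the 5′ peak, and to −0.017 with length-weighted means. At the HSPA1B 5′ peak, median-centring gave 0.096 and quantile normalization 0.061 in place of −0.022. With an FDR of at most 50%, no peak remained at any of the genes, so the differences in bases under peaks were 0 for HSPA1A, for HSPA1B and for both together, and the regions with separated groups numbered 265 (higher in siMettl3) and 296 (lower), against 800 and 817, since fewer regions remained. With a score of at least 70, only the HSPA1B 3′ peak of siControl replicate 2 and the HSPA1A peak were left, and HSPA1B had no enrichment to compare.

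With 1 sample left out in turn, the difference ranged from −0.022 to 0.263 for the highest enrichment at HSPA1B, from −0.316 to −0.164 at its 3′ peak, from 0.218 to 0.980 for its tags scaled to those in all peaks, from −997 to 166 bases for its covered length and from 0 to 849 bases for that of HSPA1A. For both genes together it ranged from −0.24 to 0.427 for the 3′ peak and from −196 to 214 bases. Without siMettl3 replicate 1, HSPA1B had no siMettl3 value for enrichment or tags. Of 69 values under alternatives, 54 kept their direction, stayed at 0 (HSPA8) or, as counts of regions, stayed within 1.5 times. Calls were not compared, and some of the 54 could not differ, as where the sample left out had no value. Another 9 turned, 4 differences in bases became 0 because no peak was left, and 2 counts of regions moved by over 1.5 times. In 10 cases no value could be computed, among them the differences in enrichment and tags at HSPA1A and HSPA8.

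Under a block for replicate number, the highest enrichment at HSPA1B differed by 0.263 and its 3′ peak by −0.316, each from the single complete pair and so with no test. The covered length of HSPA1B differed by −415.5 bases (SD of the paired differences 1112.3). With no blocked test at the HSP70 genes, whether a call would change could not be seen. The labels do not say that a number marks a shared batch, and the replicate differences of both groups correlated with r = 0.0114 over 3875 regions. The unknown depth of the libraries limits every comparison of presence.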

Other observations

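siMettl3 replicate 2 listed a peak at chr6:31778598-31779545 (hg19), 3.75 kb below the HSPA1A window, that no other sample listed. A peak in that sample alone was found in 11.4% of all regions. The fold enrichment of this peak was 6.57, while it held only 67 tags and had a score of 89.85 and an FDR of 64.61%. That enrichment was above all 6 peaks at HSPA1A and HSPA1B, which each lay below the median of their list. In the RefSeq gene order of GRCh38.p14 the protein-coding gene next to HSPA1A on that side is HSPA1L, a further HSP70 gene. The peak was not assigned to it, because no annotation of hg19 was used here.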
